A study of Mus musculus with 8 samples.

Results

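The maturation of mouse oocytes lacking BAF250a was followed by comparing their transcriptome at 2 stages. The stages were the germinal vesicle (GV) stage, the arrest in prophase of the first meiotic division, and metaphase of the second meiotic division (MII), the stage at which an ovulated egg waits for sperm. The comparison was defined by the labels alone: 2 libraries of knockout MII oocytes were set against 2 libraries of knockout GV oocytes, 4 of the 8 libraries of the series. Each library was made from 5 to 10 oocytes. The knockout mice, labelled BAF250aGKO, were C57BL/6 mice in which Gdf9-cre removed BAF250a. Gdf9-cre is a recombinase driven by the promoter of an oocyte growth factor gene, so it acts in oocytes, and the somatic cells of the ovary keep the gene. All 4 knockout libraries carried this deletion, and the other 4 libraries came from wildtype C57BL/6 oocytes at the same stages, 2 at GV and 2 at MII. The sources used here give no ages, hormone treatment, or whether MII oocytes were ovulated or matured in culture. The table held 54838 gene rows, of which 15572 had enough reads to be tested.

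A fully grown GV oocyte has almost stopped transcription, and its transcripts are largely a store made during growth. When meiosis resumes, part of this store is destroyed by shortening of the poly(A) tail and decay, while other messages that were kept dormant receive longer tails and are translated. Changes of a transcript between GV and MII are therefore usually read as decay, stability or tail length rather than as new synthesis. BAF250a, encoded by Arid1a, is an ARID subunit of the BAF form of the SWI/SNF chromatin remodelling complexes, and Arid1b encodes the alternative subunit. No label states priming or selection by the poly(A) tail, so longer tails and more transcript cannot be told apart. No value of the RNA amount per oocyte was used: levels are shares of a library, and a lower share cannot be told apart from a share diluted by other transcripts.

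Levels are given as CPM, reads scaled to a common total of reads in tested genes, and adjusted between libraries by trimmed mean of M values (TMM). Changes are log2 fold changes, MII against GV, with their standard error (SE), from edgeR's quasi-likelihood test over all 8 libraries. In brackets after the levels stand the log2 fold change ± SE and the adjusted p. A gene was called, and is said to have risen or fallen, at a Benjamini-Hochberg adjusted p below 0.05. Each group had 2 libraries, and values are given in the order replicate 1, replicate 2. Nothing in the labels ties replicates to separate mice, so p-values measure the spread between these libraries.

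The targeted gene, Arid1a, has the identifier ENSMUSG00000007880 and spans 133679008 to 133756769 on the minus strand of chromosome 4 in mm10. It lay at 379.6 and 458 CPM in control GV, 1617 and 1293 CPM in control MII, 4.87 and 12.9 CPM in knockout GV and 33.03 and 21.7 CPM in knockout MII libraries. Every knockout library lay far below every control library. Which exons were deleted is unknown here, and reads were counted over the whole gene. Within the knockout the remaining Arid1a reads rose by 1.62 ± 0.43 (adjusted p = 0.0104), and in the control Arid1a rose by 1.80 ± 0.42. The knockout call was lost without knockout GV replicate 1 and without knockout MII replicate 1 (adjusted p up to 0.078).

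Reads in genes ranged from 22388567 to 33289150 in the 4 knockout libraries, and replicates correlated over genes at 0.981 (GV) and 0.970 (MII) on the log2(CPM + 1) scale. Scaling factors were 0.779 and 1.08 at GV and 1.01 and 0.919 at MII, so knockout GV replicate 1 had the factor farthest from 1. The share of reads that HTSeq assigned to no gene was 32.2% and 32.3% at GV, against 22.7% and 22% at MII. Libraries held 14559 and 15315 genes with at least 5 reads at GV, and 13391 and 12921 at MII. Oocyte markers summed to 62288 and 57773 CPM of all reads in genes at GV and 40002 and 35375 at MII. All 15 were detected in every library.

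About as many genes passed the test between the stages as did not. Of 15572 genes tested, 7627 were called (49.0%), with 3102 higher at MII (19.9%) and 4525 lower (29.1%). Falls were deeper than rises: the median change was 1.86 among genes that rose and -4.22 among genes that fell. With the 855 fallen genes that had 0 reads in both MII libraries placed at the lower bound of their fold, the median of the falls was -3.49. The median over all genes tested was -0.33. Among called genes, 2889 rose and 4455 fell by more than 1 on the log2 scale. A change beyond 4 was seen in 143 rises and 2411 falls, or in 103 and 1815 with genes at 0 reads at their bound. There were 33 genes at 10 CPM or more in knockout GV with 0 reads in both MII libraries, against 16 in the control, and 0 genes in the reverse direction. Without knockout GV replicate 1 the higher calls dropped to 1955 and the lower calls to 3285.

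Among the genes with the most reads, both directions were seen. Of called genes, those with the highest CPM that rose included Spin1, a Tudor domain reader of histone methylation, the ubiquitin ligase gene Siah2, and Khdc1b. Spin1 lay at 6272 and 4129 CPM at GV and 10027 and 12426 CPM at MII (1.11 ± 0.34, adjusted p = 0.0209). Khdc1b lay at 2413 and 1730.4 CPM at GV and 5992 and 6448 CPM at MII (1.59 ± 0.31, adjusted p = 0.00199). Siah2 lay at 3019 and 1512 CPM at GV and 4093 and 7249.5 CPM at MII (1.32 ± 0.42, adjusted p = 0.0252). In each of the 3 genes both MII libraries lay above both GV libraries, which the rule for naming them required. The calls of Spin1 and Siah2 were lost without knockout MII replicate 2 (adjusted p = 0.0914 and 0.174) or without knockout GV replicate 2. The highest-CPM genes that fell were Gdf9, Uchl1, Ubb, Plat and Elobl. Gdf9, the growth factor gene whose promoter drives the Cre, lay at 21739 and 15783 CPM at GV and 9419 and 8277 CPM at MII (-1.08 ± 0.35, adjusted p = 0.0253), and this call was lost without knockout MII replicate 2 (adjusted p = 0.103). Uchl1, a deubiquitinating enzyme abundant in oocytes, lay at 17746 and 9434 CPM at GV and 777 and 807 CPM at MII (-4.10 ± 0.41, adjusted p = 3.56e-05). The ubiquitin precursor gene Ubb lay at 12825 and 6284 CPM at GV and 538 and 664 CPM at MII (-3.99 ± 0.46, adjusted p = 9.35e-05). Both MII libraries of Uchl1 and Ubb lay far below both GV libraries. The lack of overlap was a condition for naming these genes, and 7620 of the 7627 called genes showed it.

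The largest rises among genes of at least 20 CPM were Tox3, Pak3, Plag1, Prr32 and 4 mitochondrially encoded mRNAs. Plag1, a zinc finger transcription factor, lay at 5.78 and 3.55 CPM at GV and 77.9 and 123 CPM at MII (4.44 ± 0.49, adjusted p = 6.64e-05). Tox3, an HMG-box protein gene, lay at 1.30 and 0.0826 CPM at GV and 23.1 and 19.4 CPM at MII (5.01 ± 0.90, adjusted p = 0.00115). Pak3, a p21-activated kinase gene, lay at 2.49 and 0.0413 CPM at GV and 28.6 and 35.5 CPM at MII (4.69 ± 1.29, adjusted p = 0.0126). Its MII libraries were alike and its GV libraries were far apart. Pak3 lay at 1.07 and 0.629 CPM in control GV and 0 and 0.264 CPM in control MII, and its change differed from the control's by 7.27 ± 1.87 without passing the test of that difference (adjusted p = 0.195).

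The largest falls with reads in all 4 libraries were Lrrc36, Usp4, Ddx56, Mindy4, Tacc3, Nosip, Stx5a and Sh3rf2. Tacc3, a spindle protein that works with the microtubule polymerase Ckap5, lay at 1793 and 1068 CPM at GV and 1.22 and 2.45 CPM at MII (-9.61 ± 0.53, adjusted p = 5.33e-06). Stx5a, a syntaxin of Golgi transport, lay at 1613 and 1076 CPM at GV and 1.55 and 2.76 CPM at MII (-9.29 ± 0.56, adjusted p = 5.33e-06). For both genes the MII libraries lay far below the GV libraries. Nosip lay at 140.1 and 125 CPM at GV and 0.268 and 0.0755 CPM at MII (-9.49 ± 0.79, adjusted p = 1.39e-05), and the deubiquitinase gene Usp4 at 159 and 135 CPM at GV and 0.0298 and 0.189 CPM at MII (-10.43 ± 0.81, adjusted p = 9.99e-06). Lrrc36 lay at 236 and 132 CPM at GV and had 2 reads in all at MII, a GV to MII ratio of 5287 (1463 to 43667). The RNA helicase gene Ddx56 lay at 89.3 and 49.6 CPM at GV and had 3 reads in all at MII, a ratio of 1328 (454 to 6441). The intervals are 95% intervals of a ratio of counts (conditional exact binomial), which cover counting error only. Sh3rf2, with 2 reads in all at MII, was the least even at GV, with 6.34 and 40.6 CPM.

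**Figure D1:**
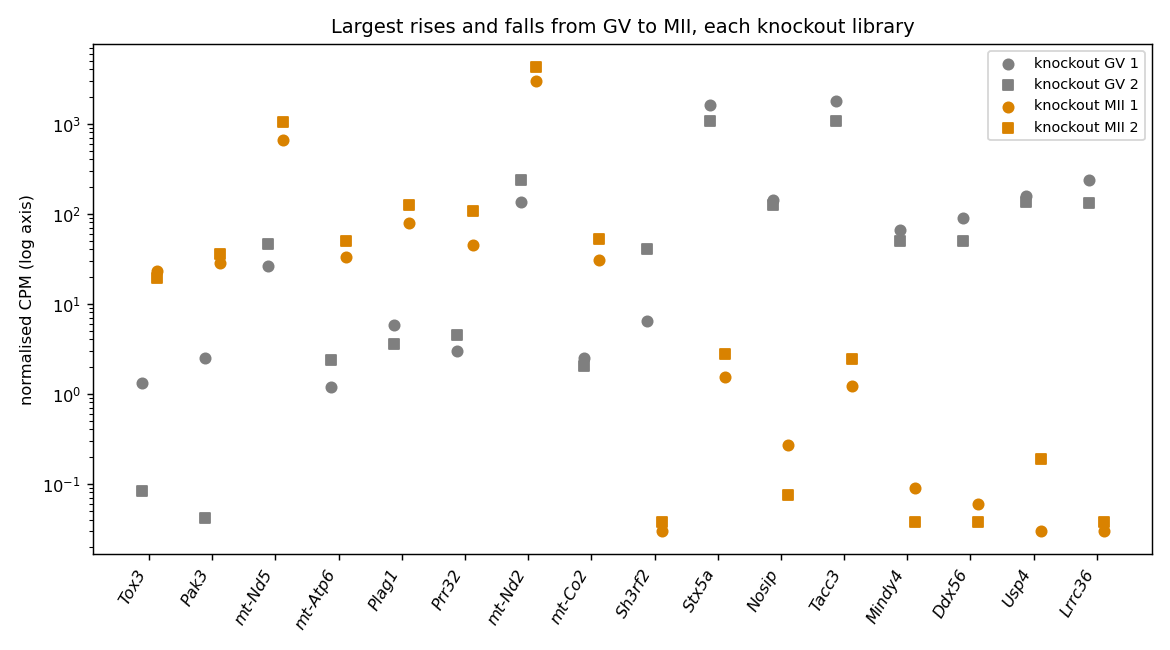
Normalised CPM (log axis) of the 16 genes with the largest rises and falls in knockout oocytes, a column per gene ordered by log2 fold change; grey symbols are the 2 GV libraries and orange symbols the 2 MII libraries (circle replicate 1, square replicate 2). The MII symbols lie above both GV symbols in the 8 genes on the left and below them in the 8 on the right, as the rule for choosing these genes required. The GV libraries of Tox3, Pak3 and Sh3rf2 are far apart.

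Dormant messages that are polyadenylated and translated during maturation were taken as a list of 13 known cases. Of these, 7 rose and 2 fell, with a median change of 1.04 against -0.33 over all genes, where 19.9% rose and 29.1% fell. Without knockout GV replicate 2 the rises were 5, and without knockout MII replicate 2 the falls were 0. Those that rose were Il7, Cnot7, Dcp2, Dazl, Cnot6l, Orc6 and Ccnb1. Cnot7, a deadenylase subunit of the CCR4-NOT complex, lay at 210.1 and 206 CPM at GV and 989 and 1574 CPM at MII (2.62 ± 0.31, adjusted p = 9.6e-05). Cnot6l, the catalytic partner of Cnot7, lay at 487 and 432 CPM at GV and 1357 and 1581 CPM at MII (1.68 ± 0.28, adjusted p = 0.000744). In both genes each MII library held over 2 times the level of each GV library. Dazl, an RNA-binding translational activator, lay at 221 and 286 CPM at GV and 725 and 992 CPM at MII (1.76 ± 0.32, adjusted p = 0.00127), and Orc6, a subunit of the replication origin complex, at 282 and 147 CPM at GV and 553 and 559 CPM at MII (1.38 ± 0.38, adjusted p = 0.0125). Il7, the gene of an interleukin, lay at 29.7 and 37.2 CPM at GV and 198 and 370.1 CPM at MII (3.09 ± 0.35, adjusted p = 8.2e-05). Mos, the kinase that keeps MAPK active until fertilisation, fell: it lay at 2931 and 1631 CPM at GV and 988 and 749 CPM at MII (-1.39 ± 0.35, adjusted p = 0.00817; without knockout MII replicate 2 adjusted p = 0.0644). The fall of Plat, the tissue plasminogen activator gene, was lost when any of 5 libraries was left out (adjusted p up to 0.156). Btg4, the adaptor that recruits CCR4-NOT to maternal messages, lay at 4439 and 2027 CPM at GV and 2876 and 3388 CPM at MII, with overlapping groups (-0.05 ± 0.39, adjusted p = 0.936). Tex19.1 lay at 83.1 and 64.8 CPM at GV and 74.6 and 117 CPM at MII and was not called (adjusted p = 0.378).

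Dormant messages carry cytoplasmic polyadenylation elements (CPE), U-rich sites near the poly(A) signal that bind CPEB1. Of the 13 dormant messages 5 held a CPE motif in the last 100 transcript bases: 2 of the 7 that rose (Cnot7 and Orc6), 1 of the 2 that fell (Plat) and 2 of the 4 not called (Btg4 and Dcp1a). The last annotated bases of messages that rose, fell or were not called are shown to let these sites be read. Sequences are from mm10 by the transcripts of GENCODE M21, 5′ to 3′ on the transcript strand, inside the 3′ UTR near its annotated end, with a CPE motif (TTTTAT or TTTTAAT) and the poly(A) signal in capitals. They were chosen after the values were seen, and annotated ends need not be those used in oocytes. The stretch holds the motif for Cnot7 and Orc6, which rose. It also holds it for Cks2, Lsm14a and Khdc1b, which are not on the dormant list and were picked after their rise was seen.
Cnot7 (chr8:40493036-40493065, minus): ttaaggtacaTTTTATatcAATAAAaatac
Cks2 (chr13:51650609-51650638, plus): gTTTTATtttacctgttttgttaAATAAAg
Lsm14a (chr7:34344668-34344697, minus): cactttgtgtTTTTAATAAAggccatggaa
Khdc1b (chr1:21386344-21386373, plus): tctttggaacATTAAAgtttgTTTTATtta
Orc6 (chr8:85308005-85308034, plus): tggttttttaaaTTTTATttcactaaatgt
In Lsm14a the motif overlaps the signal. Btg4, not called, and Plat, which fell, also hold a motif in the last 100 bases. So do Gdf9, Dnmt1, Setdb1, Bub1b, Tubb2b and Akap1, which fell and whose sequences are not shown.
Btg4 (chr9:51119797-51119826, plus): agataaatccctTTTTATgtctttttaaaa
Plat (chr8:22782745-22782774, plus): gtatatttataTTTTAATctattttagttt
Il7, Dcp2, Cnot6l, Ccnb1 and Dazl, the other 5 dormant messages that rose, have no motif in that window. Tent2 also rose without it, and Mos, Zp1, Zp2, Tle6, Tubb4b and Tacc3 fell without it.
Il7 (chr3:7569994-7570023, minus): aactagaagttaaggtaAATAAActgctgc
Cnot6l (chr5:96070340-96070369, minus): ttccctgtaggcAATAAAtggccattttgc
Ccnb1 (chr13:100778656-100778685, minus): ctttatgttgctAATAAAcatagttttcga
Dazl (chr17:50279400-50279429, minus): cttgtatacacgAATAAAacctttttttca
Mos (chr4:3870661-3870690, minus): atatttttaggaAATAAAgttaccacgaac
Zp1 (chr19:10914293-10914322, minus): atggactcAATAAAccattgtttgaaaact
Zp2 (chr7:120132359-120132388, minus): ttggacttgcaAATAAAgagactgcagtta
Tle6 (chr10:81590907-81590936, minus): cgagttgcgtgtAATAAAacaattgaaatg
Tubb4b (chr2:25222165-25222194, minus): acagataccaccATTAAAgcaattcatagt
Tacc3 (chr5:33678946-33678975, plus): gggtagccctgtAATAAAgacagctctgtc

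Over 12964 protein-coding genes with an annotated coding transcript, the motif lay in the last 100 bases of 19.09%. It was present in 854 of the 2858 genes that rose (29.9%, 95% exact binomial interval 28.2% to 31.6%). Of the 3824 genes that fell, 394 held it (10.3%, 9.36% to 11.3%), and of the 6282 genes not called it was 19.5%. Motifs that do not overlap a poly(A) signal gave 27.0% among rises and 9.44% among falls. In the last 300 bases the shares were 51.0% and 19.95%, against 34.2% of all. Windows were counted from the transcript end, so with a shorter 3′ UTR they ran into coding sequence. In the group of 5 with the shortest 3′ UTRs (up to 287 bases) 45.6% fell and 11.4% rose. In the group with the longest (2378 bases or more) the last 100 bases held the motif in 27.0% of rises and 14.3% of falls. The median change was 0.70 for the 2475 genes with the motif and -0.54 for the 10489 without it. The search used the transcript strand only, and a match is a string of letters, not a shown binding site. Genes are not independent replicates, and these shares are a description with no test.

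Transcript composition moved with the same calls. Coding genes were cut into 5 groups of equal size by GC content. In the group with the lowest (median 41.9%) 38.5% rose and 12.3% fell, and in the group with the highest (median 58.1%) 9.64% rose and 42.5% fell. The median change went from 0.99 through 0.33, -0.42 and -1.25 to -1.70 over the groups. The motif share among genes that rose lay between 28% and 30.8% in all 5 groups, and among genes that fell it went from 16.6% in the lowest group to 6.72% in the highest. Messages with short 3′ UTRs fell more: the median change was -1.89 in the group of 5 with the shortest and 0.55 in that with the longest. In the control the GC groups had medians from 1.07 to -1.40. The share of reads that HTSeq assigned to no gene also differed between the stages, as given above. The part that GC content or library making has in these changes was not tested.

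**Figure D2:**
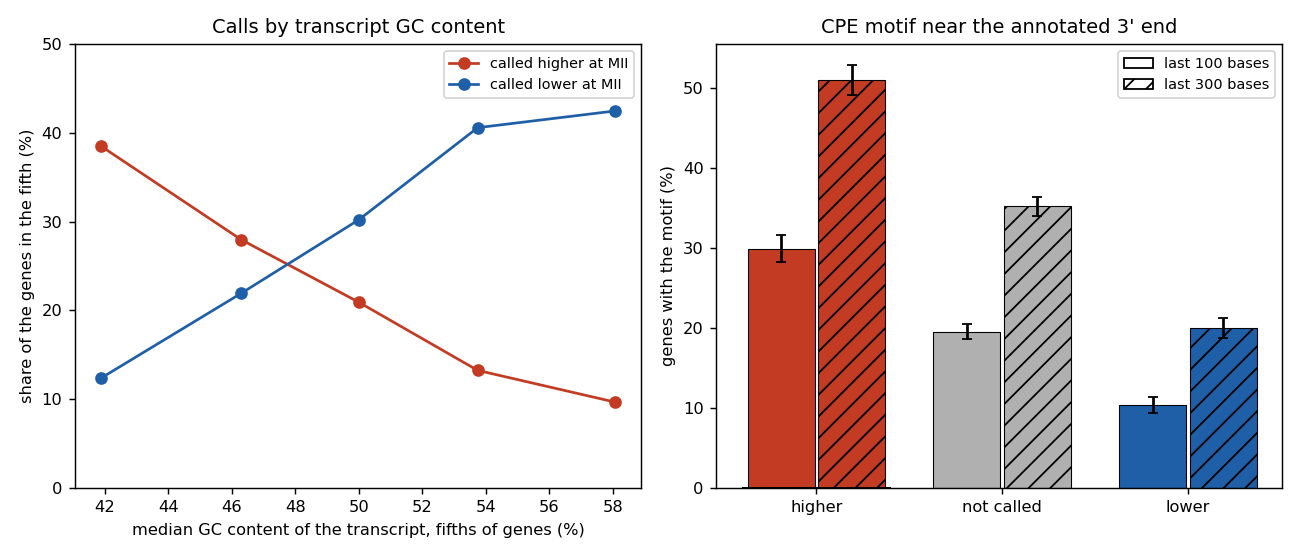
Left, share of protein-coding genes called higher (red) or lower (blue) at MII in knockout oocytes, in percent, in 5 equal groups by transcript GC content, drawn at each group's median GC content. Right, percent of genes with TTTTAT or TTTTAAT in the last 100 (plain) or 300 (hatched) annotated transcript bases among genes called higher (red), not called (grey) and called lower (blue), with 95% exact binomial intervals as bars; the share is highest among genes that rose (29.9% and 51.0%) and lowest among those that fell (10.3% and 19.95%).

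The machinery that acts on stored messages split by component. Of 33 messages for storage and tail extension 11 rose and 14 fell, with a median of -0.38. This count and those of the lists below stand beside 19.9% higher and 29.1% lower over all genes tested, with a median of -0.33. Cpeb1, which binds the CPE, fell from 375 and 406 CPM at GV to 130.4 and 86.5 CPM at MII (-1.85 ± 0.34, adjusted p = 0.00137). Its relative Cpeb4 lay at 6.12 and 7.35 CPM at GV and 72.5 and 82.6 CPM at MII (3.52 ± 0.46, adjusted p = 0.000187), and the cytoplasmic poly(A) polymerase gene Tent2 at 20.1 and 29.3 CPM at GV and 163 and 221 CPM at MII (2.96 ± 0.37, adjusted p = 0.000135). Lsm14a, a component of RNA granules, lay at 198 and 220.2 CPM at GV and 1358 and 1987 CPM at MII (adjusted p = 4.04e-05). Cpeb1 thus moved opposite to these 3 genes. Zar1l, a zinc finger RNA-binding gene of the oocyte, lay at 1135 and 702 CPM at GV and 2.23 and 10.7 CPM at MII (-7.16 ± 0.71, adjusted p = 3.66e-05). Its paralog Zar1 lay at 5024 and 3492 CPM at GV and 2376 and 1787 CPM at MII (-1.03 ± 0.32, adjusted p = 0.0218; lost without knockout GV replicate 1 or knockout MII replicate 2, adjusted p up to 0.131). The cleavage and polyadenylation subunit gene Cpsf4 lay at 237 and 122 CPM at GV and 12.5 and 4.68 CPM at MII (-4.38 ± 0.55, adjusted p = 0.000139).

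Of 43 deadenylation and decay genes 16 rose and 11 fell, with a median of 0.08. Without knockout GV replicate 2 the rises were 10, and without knockout GV replicate 1 the falls were 7. Pan3, the regulatory subunit of the PAN2 deadenylase, lay at 57.1 and 68.5 CPM at GV and 365 and 513 CPM at MII (2.80 ± 0.28, adjusted p = 4.14e-05). Ythdf3, a reader of N6-methyladenosine, lay at 32.2 and 52.2 CPM at GV and 218 and 303 CPM at MII (2.63 ± 0.33, adjusted p = 0.000135), and the decapping enzyme gene Dcp2 at 32.9 and 20.9 CPM at GV and 129.9 and 170.0 CPM at MII (2.48 ± 0.33, adjusted p = 0.000215). All 3 rose together with the deadenylase genes Cnot7, Cnot6 and Cnot6l. Cnot10, another CCR4-NOT subunit, lay at 84.1 and 68.5 CPM at GV and 0.298 and 0.717 CPM at MII (-7.25 ± 0.48, adjusted p = 6.73e-06), and the exosome subunit gene Exosc1 at 82.7 and 74.9 CPM at GV and 0.626 and 2.94 CPM at MII (-5.48 ± 0.66, adjusted p = 0.00011). The decapping enhancer gene Edc3 lay at 1.13 and 0.909 CPM at GV with 0 reads in both MII libraries, at least 10.1-fold lower against a floor of 3 counts per library. Within CCR4-NOT the members thus moved both ways.

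Entry into M phase is driven by CDK1 with cyclin B, set against the kinases WEE1 and WEE2 and the phosphatases CDC25. Of 22 genes of this switch 9 rose and 8 fell, with a median of 0.27. Leaving out 1 library left between 5 and 7 rises, and 5 falls without knockout GV replicate 2. The cyclin genes Ccnb1, Ccnb2, Ccna2, Ccne1 and Ccne2 rose, and Ccnb3 fell. Ccnb1 lay at 2227 and 1547 CPM at GV and 3134 and 4643 CPM at MII (1.04 ± 0.38, adjusted p = 0.0423), a call lost when any of 5 libraries was left out (adjusted p up to 0.221). Ccnb2 lay at 122 and 124 CPM at GV and 341 and 587 CPM at MII (1.92 ± 0.31, adjusted p = 0.00059), and Cks2, a small subunit that binds CDK1, at 634 and 351 CPM at GV and 1652 and 2629.6 CPM at MII (2.12 ± 0.42, adjusted p = 0.002). The message of the kinase itself went the other way. Cdk1 lay at 123 and 104 CPM at GV and 2.03 and 1.51 CPM at MII (-6.00 ± 0.74, adjusted p = 0.000131), and Wee1 at 8.67 and 19.2 CPM at GV and 0.536 and 0.0377 CPM at MII (-5.54 ± 1.04, adjusted p = 0.00155). Cdc25b, the phosphatase gene required for the resumption of meiosis, lay at 126 and 126 CPM at GV and 27.9 and 47.1 CPM at MII (-1.75 ± 0.34, adjusted p = 0.00193). Wee2, the oocyte form of Wee1, lay at 240.0 and 224 CPM at GV and 233 and 129 CPM at MII and was not called (adjusted p = 0.355).

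Cyclic AMP holds the oocyte in prophase, and of 18 genes of that pathway 10 rose and 1, Akap1, fell, with a median of 1.57. The rises were 7 without knockout GV replicate 1. Pde3a, the phosphodiesterase that removes cAMP when meiosis resumes, lay at 48.9 and 84.5 CPM at GV and 243 and 190.0 CPM at MII (1.70 ± 0.40, adjusted p = 0.00588; without knockout GV replicate 1 adjusted p = 0.0606). Prkar2b, a regulatory subunit of protein kinase A, lay at 9.57 and 16.3 CPM at GV and 67.5 and 150.4 CPM at MII (3.07 ± 0.45, adjusted p = 0.000371), and Pde8a at 13.5 and 18.96 CPM at GV and 88.4 and 79.8 CPM at MII (2.37 ± 0.33, adjusted p = 0.000259). Subunits and phosphodiesterases of the pathway were thus among the rises. Gpr3, the receptor that keeps cAMP high, lay at 30.1 and 41.4 CPM at GV and 54.3 and 28.7 CPM at MII, with overlapping groups (adjusted p = 0.626). Akap1, which anchors the kinase at mitochondria, lay at 380.4 and 304 CPM at GV and 172 and 99.1 CPM at MII (-1.34 ± 0.32, adjusted p = 0.00581; without knockout MII replicate 2 adjusted p = 0.0512).

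Of 29 genes of the MOS-MAPK pathway and the anaphase-promoting complex (APC/C), the ubiquitin ligase that ends M phase, 7 rose and 12 fell, with a median of -0.64. Without knockout MII replicate 2 the falls were 7. Map2k1, the MAPK kinase below MOS, lay at 322 and 252 CPM at GV and 717 and 972 CPM at MII (1.56 ± 0.29, adjusted p = 0.00137), while Mos, given above, fell. APC/C subunits moved both ways: Anapc10 lay at 21.7 and 27.8 CPM at GV and 96.6 and 136 CPM at MII (2.23 ± 0.31, adjusted p = 0.000268), and Anapc7 at 354 and 247 CPM at GV and 23.3 and 20.2 CPM at MII (-3.79 ± 0.38, adjusted p = 4.04e-05). Anapc2, the cullin subunit, lay at 108 and 96.2 CPM at GV and 6.76 and 2.53 CPM at MII (-4.45 ± 0.47, adjusted p = 5.4e-05). Ppp3ca, a calcineurin catalytic subunit that acts at egg activation, lay at 6.68 and 6.73 CPM at GV and 33.7 and 29.4 CPM at MII (2.23 ± 0.38, adjusted p = 0.000803).

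Among 26 genes of the spindle checkpoint and the Aurora and Polo kinases 5 rose and 11 fell, with a median of -0.32. The falls were 6 without knockout GV replicate 1. Plk4, the centriole duplication kinase gene, lay at 59.5 and 60.3 CPM at GV and 243 and 330.1 CPM at MII (2.26 ± 0.27, adjusted p = 0.000119), and Sgo1, a protector of centromeric cohesion, at 17.7 and 36.6 CPM at GV and 90.1 and 142 CPM at MII (2.09 ± 0.39, adjusted p = 0.00147). Aurkc, the germ-cell Aurora kinase gene, lay at 304 and 25.7 CPM at GV and 731 and 1014 CPM at MII (2.40 ± 0.81, adjusted p = 0.031). Its GV libraries differed by more than 10 times, and the call was lost when any of 3 libraries was left out (adjusted p up to 0.0958) and with DESeq2. Bub1, Birc5 and Bub1b were among the falls. Bub1 lay at 32.2 and 59.3 CPM at GV and 2.77 and 0.491 CPM at MII (-4.79 ± 0.74, adjusted p = 0.000488), and Birc5, the survivin subunit of the chromosomal passenger complex, at 2117 and 1041 CPM at GV and 223 and 166 CPM at MII (-3.02 ± 0.38, adjusted p = 0.000138). Bub1b lay at 4308 and 2474 CPM at GV and 1769.7 and 1751 CPM at MII (-0.95 ± 0.35, adjusted p = 0.0429), a call lost when any of 5 libraries was left out.

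Of 54 kinetochore and spindle assembly genes 16 rose and 16 fell, with a median of -0.18, and without knockout GV replicate 2 the rises were 8. Over all genes tested 19.9% rose and 29.1% fell, with a median of -0.33. Nedd1, which brings gamma-tubulin to the spindle, lay at 70.5 and 101 CPM at GV and 458 and 474 CPM at MII (2.44 ± 0.28, adjusted p = 8.2e-05). Kif2a, a microtubule-depolymerising kinesin gene, lay at 27.98 and 47.4 CPM at GV and 203 and 188 CPM at MII (2.37 ± 0.41, adjusted p = 0.000915). Cenpq and Cenpt, both of the inner kinetochore, lay at the other end. Cenpq lay at 78.7 and 73.2 CPM at GV and 5.03 and 3.10 CPM at MII (-4.22 ± 0.36, adjusted p = 1.6e-05), and Cenpt at 25.4 and 26.9 CPM at GV and 0.149 and 0 CPM at MII (-8.25 ± 0.86, adjusted p = 4.72e-05), with 5 reads in all at MII. Of 16 tubulins 3 rose and 11 fell, with a median of -2.27. Tubb4b lay at 3161 and 2139 CPM at GV and 31.96 and 35.9 CPM at MII (-6.29 ± 0.40, adjusted p = 6.14e-06) and Tuba4a at 369 and 292 CPM at GV and 0.745 and 0.604 CPM at MII (-8.92 ± 0.51, adjusted p = 5.33e-06). The 11 that fell were all alpha or beta tubulins, and the 3 that rose were Tubg2, Tube1 and Tubal3. The call of Tubal3 was lost without either knockout GV library or knockout MII replicate 2 (adjusted p up to 0.162). Tubg2, a gamma-tubulin gene, lay at 127 and 124 CPM at GV and 337 and 383 CPM at MII (1.52 ± 0.25, adjusted p = 0.000634), and the epsilon-tubulin gene Tube1 at 23.1 and 21.2 CPM at GV and 56.7 and 61.8 CPM at MII (1.42 ± 0.31, adjusted p = 0.00393). Tubulin copies share sequence, and reads may be split between them.

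Cohesin, condensin and axis genes leaned upward: of 34, 15 rose and 7 fell, with a median of 1.34. The counts were 10 and 4 without knockout GV replicate 1. Esco1, a cohesin acetyltransferase gene, lay at 68.1 and 109 CPM at GV and 668 and 712 CPM at MII (2.96 ± 0.32, adjusted p = 6.2e-05), and the cohesin subunit gene Stag1 at 5.83 and 8.55 CPM at GV and 37.5 and 73.8 CPM at MII (2.95 ± 0.47, adjusted p = 0.000585). Smc1a, the mitotic form of the SMC1 subunit, lay at 89.7 and 64.7 CPM at GV and 19.9 and 16.8 CPM at MII (-2.07 ± 0.37, adjusted p = 0.0012), and the condensin II subunit gene Ncaph2 at 44.6 and 53.1 CPM at GV and 10.3 and 15.6 CPM at MII (-1.92 ± 0.42, adjusted p = 0.00378). Within cohesin, Stag1, Stag2 and Rad21 rose while Smc1a and Smc1b fell.

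Messages of the egg coat fell steeply. Of 15 zona pellucida and oocyte-secreted genes 2 rose and 8 fell, with a median of -1.08, and 5 fell without knockout MII replicate 2. The 3 zona genes encode the glycoproteins of the coat around the egg. Zp1 lay at 3715 and 2514 CPM at GV and 98.6 and 109 CPM at MII (-4.91 ± 0.35, adjusted p = 7.56e-06). Zp2 lay at 3555 and 2443 CPM at GV and 97.5 and 111 CPM at MII (-4.85 ± 0.35, adjusted p = 7.46e-06), and Zp3 at 6340.3 and 4114 CPM at GV and 368 and 295 CPM at MII (-3.98 ± 0.36, adjusted p = 2.13e-05). The MII libraries of all 3 genes lay far below the GV libraries. Fgf8, a signal to cumulus cells, lay at 369.7 and 173 CPM at GV and 4.83 and 2.64 CPM at MII (-6.17 ± 0.60, adjusted p = 3.15e-05). Bmp15, the partner of Gdf9, lay at 1178 and 1963 CPM at GV and 2530.4 and 1903 CPM at MII, with overlapping groups (adjusted p = 0.243). Oosp3, an oocyte-secreted protein gene, lay at 646 and 451 CPM at GV and 2167 and 2220.0 CPM at MII (2.00 ± 0.37, adjusted p = 0.00138).

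Of 19 oocyte transcription factor genes tested 5 fell (Figla, Nobox, Foxr1, Rfx2 and Lhx8) and Sohlh2 rose, with a median of -0.17. Nobox, a homeobox factor needed for oocyte growth, lay at 1184 and 996 CPM at GV and 60.1 and 46.5 CPM at MII (-4.35 ± 0.36, adjusted p = 1.29e-05). Figla, which drives the zona genes during growth, lay at 33.8 and 26.2 CPM at GV and 0.0894 and 0.0377 CPM at MII (-8.72 ± 0.79, adjusted p = 2.19e-05), with 4 reads in all at MII. The rise of Sohlh2 was lost when any of 3 libraries was left out (adjusted p up to 0.126). The subcortical maternal complex, needed for the first cleavages, and the oocyte NLRP genes had 3 rises and 8 falls among 17, with a median of -0.70. Ooep, Padi6 and Tle6, members of the complex, fell. Ooep lay at 6601 and 3299 CPM at GV and 159.9 and 77.4 CPM at MII (-5.38 ± 0.54, adjusted p = 3.79e-05), Padi6 at 4949 and 3194 CPM at GV and 142 and 109 CPM at MII (-5.02 ± 0.41, adjusted p = 1.35e-05), and Tle6 at 9128 and 6087 CPM at GV and 468 and 262 CPM at MII (-4.38 ± 0.42, adjusted p = 2.88e-05). Nlrp5 lay at 1327 and 1173 CPM at GV and 543 and 233 CPM at MII (-1.69 ± 0.44, adjusted p = 0.0102; without knockout MII replicate 2 adjusted p = 0.0675). Nlrp9c lay at 319 and 321 CPM at GV and 1069 and 1319.8 CPM at MII (1.90 ± 0.35, adjusted p = 0.0013), while the rises of Nlrp4a and Nlrp4e were lost when any of 5 and any of 8 libraries was left out.

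Chromatin genes were examined because BAF250a is a chromatin regulator. Of 26 BAF, PBAF and ncBAF subunits 7 rose and 7 fell, with a median of 0.07, and 4 rose when knockout GV replicate 1 or replicate 2 was left out. The shares over all genes tested were 19.9% higher and 29.1% lower. Arid1b, the alternative ARID subunit of BAF, lay at 166 and 154 CPM at GV and 34.6 and 29.7 CPM at MII (-2.31 ± 0.26, adjusted p = 8.2e-05). Arid2, the ARID subunit of PBAF, lay at 105 and 126 CPM at GV and 479 and 539.7 CPM at MII (2.14 ± 0.26, adjusted p = 0.000107). The 2 ARID subunits thus moved in opposite directions. Ss18 lay at 106 and 109 CPM at GV and 301 and 419.9 CPM at MII (1.75 ± 0.31, adjusted p = 0.00103), and its paralog Ss18l1 at 34.6 and 23.1 CPM at GV and 3.99 and 3.59 CPM at MII (-2.93 ± 0.44, adjusted p = 0.000426). Smarca4, the BRG1 ATPase gene, lay at 75.3 and 78.8 CPM at GV and 87.3 and 80.5 CPM at MII and was not called (adjusted p = 0.771). In the control, Arid1b changed by -1.07 ± 0.25 and Arid2 by 2.32 ± 0.26, and neither difference from the knockout passed the test (adjusted p = 0.231 and 0.927).

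Of 54 Polycomb and histone methylation genes 22 rose and 5 fell, with a median of 0.52, and 12 rose without knockout GV replicate 2. The falls were 3 when any of the 4 GV libraries was left out. Bmi1 and Rnf2, of Polycomb repressive complex PRC1, and Suz12, of PRC2, were among the rises. Bmi1 lay at 101 and 139 CPM at GV and 932 and 1412 CPM at MII (3.29 ± 0.36, adjusted p = 6.04e-05). Suz12 lay at 87.6 and 91.3 CPM at GV and 442 and 746 CPM at MII (2.73 ± 0.33, adjusted p = 0.000125), and Rnf2 at 49.9 and 63.2 CPM at GV and 226 and 309 CPM at MII (2.24 ± 0.29, adjusted p = 0.000159). Kdm6a, the H3K27 demethylase gene that opposes PRC2, also rose and lay at 29.5 and 31.7 CPM at GV and 124 and 123 CPM at MII (2.01 ± 0.31, adjusted p = 0.000465). Phc1, a PRC1 subunit gene, lay at 124 and 127 CPM at GV and 30.3 and 21.5 CPM at MII (-2.27 ± 0.29, adjusted p = 0.000152), and Setdb1, an H3K9 methyltransferase gene, at 272 and 242 CPM at GV and 108 and 42.8 CPM at MII (-1.77 ± 0.42, adjusted p = 0.00618). Of 29 maternal-effect chromatin genes, a list that shares members with the previous one, 10 rose and 11 fell, with a median of -0.15, and 5 rose without knockout GV replicate 2 and 7 fell without knockout MII replicate 2. Dnmt1, the maintenance DNA methyltransferase gene, lay at 4924 and 4300.0 CPM at GV and 529.9 and 334 CPM at MII (-3.42 ± 0.38, adjusted p = 7.28e-05). Npm2, a histone chaperone for the fertilised egg, lay at 2562 and 1861 CPM at GV and 186 and 266 CPM at MII (-3.29 ± 0.40, adjusted p = 0.000116). In both genes the MII level was far below either GV library. Dppa3, which protects maternal DNA methylation, lay at 3399 and 1891 CPM at GV and 1339.9 and 1493 CPM at MII (-0.90 ± 0.33, adjusted p = 0.0448), a call lost when any of 6 libraries was left out.

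Most ribosomal protein messages fell. Of 78 cytoplasmic ribosomal protein genes 72 fell and 2 rose, with a median of -5.09. Their summed level was 31179 and 23530 CPM of all reads in genes at GV and 2354 and 1475 CPM at MII. Rpl21 lay at 1098 and 614 CPM at GV and 3.46 and 2.49 CPM at MII (-8.16 ± 0.52, adjusted p = 6.42e-06), and Rps4x at 1002 and 584 CPM at GV and 2.89 and 2.91 CPM at MII (-8.09 ± 0.43, adjusted p = 5.33e-06). Rpl13a and Rps15a were the exceptions. Rpl13a lay at 22.7 and 16.8 CPM at GV and 60.3 and 53.98 CPM at MII (1.53 ± 0.36, adjusted p = 0.00584; without knockout GV replicate 2 adjusted p = 0.0618), and Rps15a at 327 and 142 CPM at GV and 527 and 433 CPM at MII (1.03 ± 0.38, adjusted p = 0.0455; lost when any of 7 libraries was left out). Ribosomal protein genes have many near-identical processed pseudogenes, so the split of reads between copies is uncertain. Translation factors were split: of 49, 27 fell, 10 rose and 12 were not called, with a median of -2.23. Eef1a1, the elongation factor gene, lay at 2314 and 1074 CPM at GV and 20.4 and 22.7 CPM at MII (-6.30 ± 0.47, adjusted p = 8.72e-06), and Eif3g at 325 and 201 CPM at GV and 1.58 and 1.36 CPM at MII (-7.47 ± 0.43, adjusted p = 5.33e-06). Rises were led by Eif4a2, an RNA helicase of initiation, at 34.04 and 52.9 CPM at GV and 350.3 and 363 CPM at MII (3.03 ± 0.40, adjusted p = 0.000201), and by Eif4g2 at 144 and 234 CPM at GV and 858 and 906 CPM at MII (2.22 ± 0.34, adjusted p = 0.000457). Without knockout MII replicate 2 the rises were 6. Of 34 proteasome genes 23 fell and 3 rose, with a median of -2.61. Psmc5, an ATPase of the regulatory particle, lay at 421 and 201 CPM at GV and 3.22 and 6.46 CPM at MII (-6.01 ± 0.55, adjusted p = 2.28e-05). Psme4, the PA200 activator gene, lay at 109.9 and 116 CPM at GV and 473 and 586 CPM at MII (2.23 ± 0.29, adjusted p = 0.000169), and Psmd1 at 119 and 105 CPM at GV and 375 and 287 CPM at MII (1.56 ± 0.27, adjusted p = 0.000984).

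The 2 genomes that encode the respiratory chain moved in opposite directions. All 13 mitochondrially encoded mRNAs had positive changes, between 3.04 (mt-Nd1) and 4.78 (mt-Nd4l), and 12 were called, with a median of 4.20. The size for mt-Nd4l is uncertain, since it had 0 and 1 reads in the GV libraries and 33 and 14 at MII. With single libraries left out it lay between 4.02 and 7.28, and its call was lost without either control GV library, either knockout GV library or knockout MII replicate 1 (adjusted p up to 0.202). The other, mt-Atp8, lay at 0.0566 and 0.124 CPM at GV and 1.16 and 1.28 CPM at MII (3.66 ± 1.43, adjusted p = 0.0559). mt-Cytb lay at 506 and 678 CPM at GV and 6717 and 9979 CPM at MII (3.82 ± 0.72, adjusted p = 0.00165), and mt-Nd2 at 135 and 236 CPM at GV and 2990.5 and 4240.1 CPM at MII (4.29 ± 0.93, adjusted p = 0.00355). The share of reads in genes of the mitochondrial chromosome was 0.249% and 0.379% at GV and 3.03% and 4.41% at MII, against 0.446% and 0.105% in control GV and 6.03% and 6.93% in control MII. Reads of mitochondrial genes can be shared with nuclear copies. Of 76 nuclear oxidative phosphorylation genes 59 fell and 4 rose, with a median of -3.56. Sdhd, a subunit of complex II, lay at 191 and 135 CPM at GV and 0.685 and 0.642 CPM at MII (-7.93 ± 0.48, adjusted p = 5.33e-06). Ndufs8, of complex I, lay at 30.98 and 30.9 CPM at GV with 0 reads in both MII libraries, at least 305.2-fold lower. Ndufb7 lay at 38.9 and 30.2 CPM at GV and had 2 reads in all at MII, a ratio of 1016 (281 to 8401). The 4 that rose were Ndufa10, Cox8a, Ndufa4 and Atp5b. Ndufa10 lay at 82.7 and 58.8 CPM at GV and 317 and 410.5 CPM at MII (2.36 ± 0.34, adjusted p = 0.000295), and Cox8a at 217 and 178 CPM at GV and 691 and 762 CPM at MII (1.88 ± 0.41, adjusted p = 0.00357). Without knockout GV replicate 2 the rises were 2.

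Of 26 genes for sperm fusion and calcium signalling 6 rose and 12 fell, with a median of -0.78. Cd9, the tetraspanin needed for fusion with sperm, lay at 97.6 and 97.97 CPM at GV and 3.66 and 1.96 CPM at MII (-5.11 ± 0.41, adjusted p = 1.25e-05), and the calcium entry channel gene Orai1 at 201 and 228 CPM at GV and 6.05 and 15.8 CPM at MII (-4.30 ± 0.44, adjusted p = 4.58e-05). Snap23, of vesicle fusion, lay at 16.2 and 19.99 CPM at GV and 62.5 and 107 CPM at MII (2.23 ± 0.36, adjusted p = 0.000688), and the zinc transporter gene Slc39a10 at 102 and 136 CPM at GV and 459.8 and 453 CPM at MII (1.94 ± 0.30, adjusted p = 0.000462). The rise of Itpr1, the calcium release channel of the egg, at 23.9 and 49.2 CPM at GV and 105 and 89.7 CPM at MII (1.41 ± 0.40, adjusted p = 0.0137), was lost without knockout GV replicate 1 or knockout MII replicate 1 (adjusted p up to 0.122). Of 27 redox genes 6 rose and 12 fell, with a median of -1.09, and without knockout GV replicate 1 the rises were 2 and the falls 8. Gpx3, a secreted glutathione peroxidase gene, lay at 53.8 and 61.4 CPM at GV and 266 and 177 CPM at MII (1.95 ± 0.34, adjusted p = 0.00109), while the glutathione synthetase gene Gss lay at 6.40 and 6.32 CPM at GV with 0 reads in both MII libraries, at least 62.8-fold lower. Of 23 cholesterol synthesis genes 4 rose and 7 fell, with a median of -0.29, and without knockout GV replicate 1 these were 2 and 4. The counts of 4 and 7 were near the shares over all genes tested, 19.9% higher and 29.1% lower with a median of -0.33. Fdft1, the squalene synthase gene, lay at 3507 and 2135 CPM at GV and 12.03 and 15.9 CPM at MII (-7.66 ± 0.44, adjusted p = 5.33e-06), and Msmo1, a later enzyme of the pathway, at 7.25 and 8.05 CPM at GV and 24.6 and 35.03 CPM at MII (1.96 ± 0.41, adjusted p = 0.00297).

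**Figure D3:**
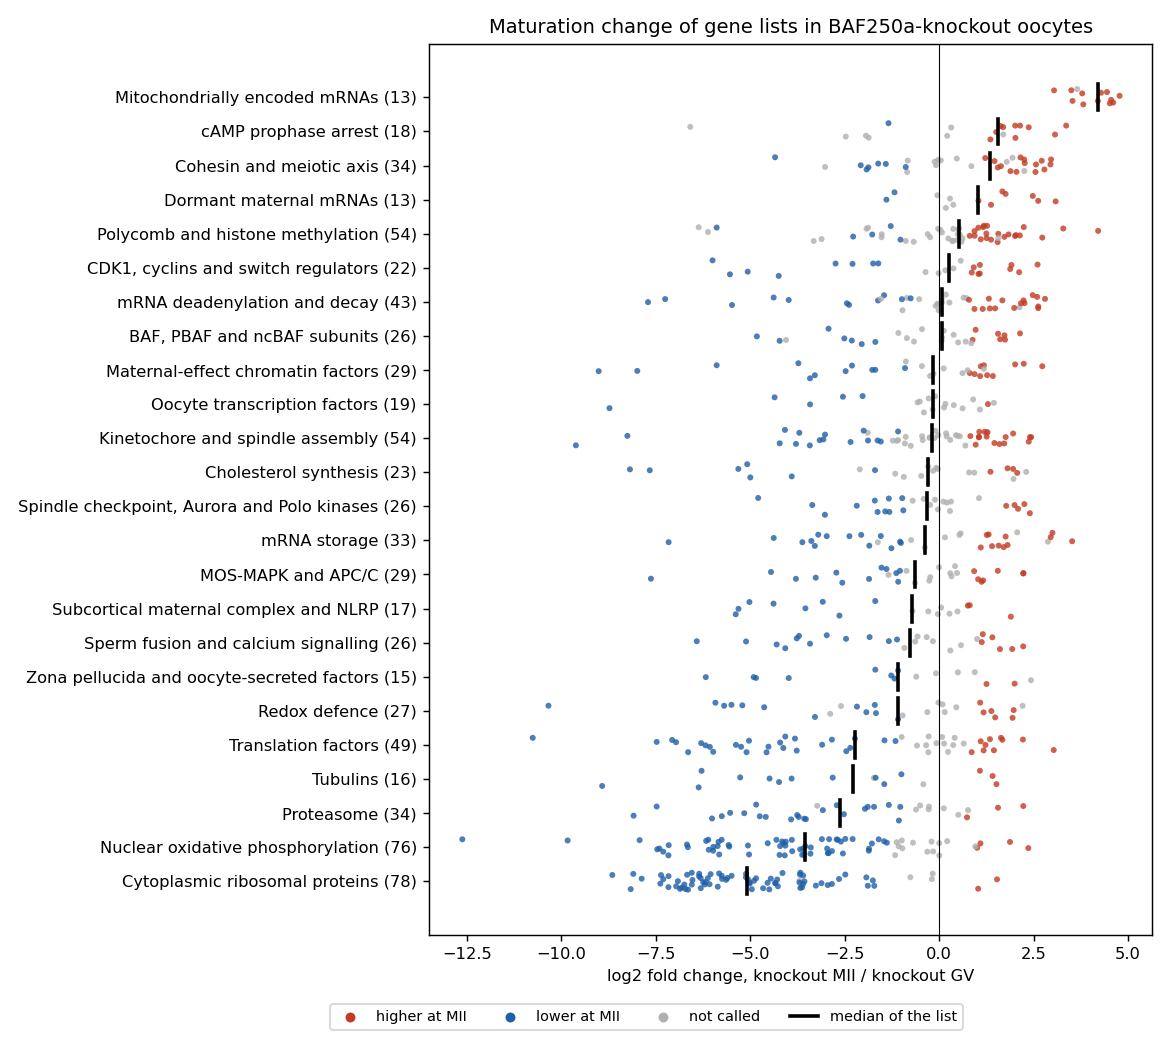
Log2 fold change from GV to MII in knockout oocytes for the members of 24 gene lists (number tested in brackets), ordered by list median (black bar); each point is a gene, red if called higher at MII, blue if called lower, grey if not called. The mitochondrially encoded mRNAs (median 4.20) lie at the top and the cytoplasmic ribosomal proteins (median -5.09) at the bottom; points of genes with 0 reads at MII are fitted values of uncertain size.

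Lists of other cell types were read beside these results. Of 25 granulosa and cumulus cell markers 19 were tested, 1 rose (Cyp19a1) and 5 fell, or 2 without knockout GV replicate 1 or without knockout MII replicate 2. Their summed level was 252 and 198 CPM of all reads in genes at GV and 474 and 357 at MII. Serpine2 held 218 and 159 CPM of that sum at GV and 389 and 296 at MII, and Cyp19a1 16.2 and 18.7 at GV and 63.4 and 56.96 at MII. Of the 25 markers, 7 and 7 were at 0 in the knockout GV libraries and 12 and 16 in the knockout MII libraries. Lhcgr, Areg and Ereg were at 0 in all 4 knockout libraries, and Fshr, Foxl2 and Nr5a1 were at 0 in both knockout MII libraries. Other markers of this list, not called, were present at MII. Has2 lay at 0 and 0.179 CPM at GV and 1.65 and 0.589 CPM at MII. Star lay at 0.529 and 0.134 CPM at GV and 2.58 and 0.797 CPM at MII. Hsd3b1 lay at 9.76 and 0.555 CPM at MII. Of 22 blood and immune markers 8 were tested and 2 fell, C1qb and Csf1r, or 1 without any single control GV, knockout GV or knockout MII library. Their sum went from 37.95 and 53.6 CPM in the GV libraries to 4.45 and 4.89 in the MII libraries. C1qb alone held 36.01 and 50.6 CPM of that sum at GV and 0.391 and 0 at MII, so the fall of the sum was that of C1qb. Cd68 went the other way, from 1.23 and 1.30 CPM at GV to 3.72 and 3.43 at MII, and was not called. The defining gene Ptprc was at 0 in every library. Of 14 stroma and endothelium markers 6 were tested and 1, Pecam1, rose, with sums of 13.8 and 22.3 CPM at GV and 26.2 and 32.2 at MII. The Pecam1 call was lost without either control GV library, either knockout GV library, 1 of the control MII libraries or knockout MII replicate 2. Fewer cells of a type and less RNA per cell cannot be told apart in these pools, and the part of such cells in single results was not tested. Of the 15 oocyte markers 9 fell, or 5 without knockout MII replicate 2.

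The same maturation step in control oocytes was set beside the knockout to see where they differ. The 2 contrasts share no library, although they share 1 estimate of the spread. In control oocytes 3302 genes rose (21.2%) and 4347 fell (27.9%). Of the genes that rose in the knockout, 2553 also rose in the control (82.3% of the knockout rises and 77.3% of the control rises), and of those that fell 3478 also fell in the control (76.9% and 80.01%). Opposite calls were made for 5 genes that rose and 6 that fell in the knockout. Over the 15572 genes, which are not independent replicates, the 2 sets of changes correlated at Pearson 0.733 and Spearman 0.786. For the lists, the ribosomal protein median was -5.09 in the knockout and -3.57 in the control, that of nuclear oxidative phosphorylation -3.56 and -2.92, and that of mitochondrially encoded mRNAs 4.20 and 5.00. Dormant messages had a median of 1.04 in the knockout with 7 rises, and of 1.56 in the control with 9. These list medians were not tested against each other. Markers of other cell types were summed at MII, control against knockout. Blood and immune markers summed to 16.8 and 65.2 CPM of all reads in genes in control and 4.45 and 4.89 in knockout MII. Granulosa and cumulus markers summed to 457 and 515 against 474 and 357. Those of stroma and endothelium summed to 50.1 and 37.8 against 26.2 and 32.2. The part of such cells in genotype differences of lists or genes was not tested.

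**Figure D4:**
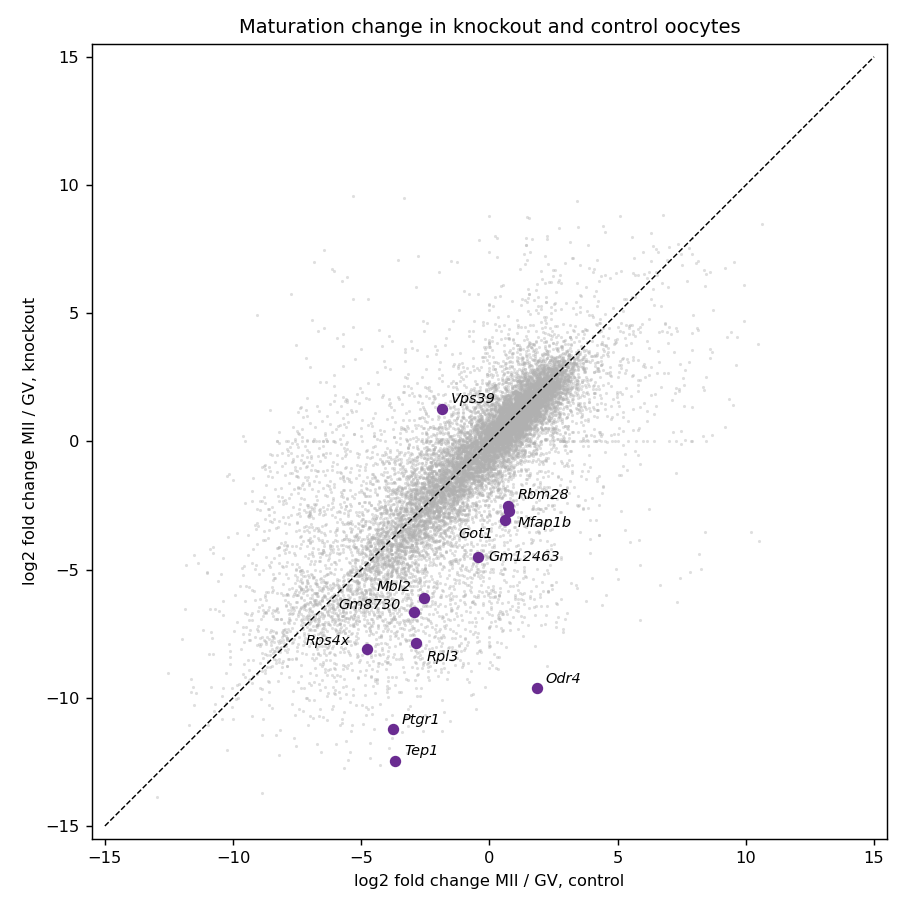
Log2 fold change from GV to MII in knockout (vertical) against control (horizontal) oocytes for 15572 genes (grey), with the line of equal change dashed; purple points are 12 of the 13 genes whose change differed between the genotypes at an adjusted p below 0.05. Most genes lie along the line, and 11 of the 12 purple points lie below it, Vps39 being the exception.

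The difference between the 2 maturation changes, tested as an interaction in the same fit, passed for 13 genes (0.0835% of those tested), 1 more positive in the knockout and 12 more negative. At an unadjusted p below 0.05 there were 1787 genes. Vps39, a subunit of the HOPS tethering complex of endosomes and lysosomes (mm10 chromosome 2, 120316461 to 120353137, minus strand), was the more positive. It lay at 69.6 and 91.03 CPM at GV and 240.2 and 149.8 CPM at MII in the knockout, with MII above GV. In the control it lay at 134 and 107 CPM at GV and 32.8 and 33.96 CPM at MII, with MII below GV. The difference was 3.13 ± 0.44 (adjusted p = 0.0458). It rose in the knockout by 1.28 ± 0.31 (adjusted p = 0.00619; lost without knockout GV replicate 1 or knockout MII replicate 1, adjusted p up to 0.0765) and fell in the control (-1.85 ± 0.31, adjusted p = 0.000847).

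Got1, Rbm28, Mfap1b and Odr4 fell in knockout oocytes and had positive changes in control oocytes. Got1, the cytosolic aspartate aminotransferase gene (chromosome 19, 43499752 to 43524605, minus strand), lay at 57.2 and 61.2 CPM at GV and 8.49 and 5.66 CPM at MII in the knockout, and at 25.99 and 40.5 CPM at GV and 50.96 and 50.4 CPM at MII in the control (difference -3.67 ± 0.49, adjusted p = 0.0458). Rbm28, a nucleolar RNA-binding protein gene (chromosome 6, 29123576 to 29165006, minus strand), lay at 42.5 and 36.5 CPM at GV and 8.58 and 5.13 CPM at MII in the knockout, and at 49.5 and 65.6 CPM at GV and 97.5 and 94.7 CPM at MII in the control (difference -3.26 ± 0.47, adjusted p = 0.0458). At MII both knockout libraries lay below both control libraries in the 2 genes, while at GV the knockout lay above the control for Got1 and below it for Rbm28. Mfap1b lay at 31.4 and 48.2 CPM at GV and 4.32 and 8.003 CPM at MII in the knockout and at 96.1 and 101 CPM at GV and 171 and 164 CPM at MII in the control (difference -3.46 ± 0.49). It has a near-identical copy, Mfap1a, so its reads may be split. Odr4 (chromosome 1, 150361305 to 150393080, minus strand) lay at 2.27 and 5.45 CPM at GV with 0 reads in both MII libraries in the knockout, at least 38.1-fold lower, and at 3.30 and 8.67 CPM at GV and 17.8 and 25.3 CPM at MII in the control. It fell in the knockout and rose in the control (adjusted p = 0.0457).

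The other genes described fell in knockout oocytes, and the control change was less negative. Rpl3, a ribosomal protein gene (chromosome 15, 80077791 to 80091868, minus strand), lay at 49.4 and 53.8 CPM at GV and 0.238 and 0.189 CPM at MII in the knockout and at 107 and 101 CPM at GV and 16.3 and 12.1 CPM at MII in the control (difference -5.01 ± 0.48, adjusted p = 0.0142). Rps4x lay at 867 and 637 CPM at GV and 26.7 and 27.6 CPM at MII in the control (difference -3.30 ± 0.46, adjusted p = 0.0458). These 2 are the members of the 78 tested ribosomal protein genes that passed. Tep1, a telomerase-associated protein gene, lay at 27.5 and 27.5 CPM at GV with 0 reads in both MII libraries in the knockout, at least 271.6-fold lower, and at 14.3 and 16.6 CPM at GV and 1.62 and 0.793 CPM at MII in the control. Ptgr1, a prostaglandin reductase gene, lay at 59.02 and 44.4 CPM at GV in the knockout and had 1 read in all at MII, a ratio of 3036 (544 to 119959), against 27.1 and 34.1 CPM at GV and 2.92 and 1.55 CPM at MII in the control. Mbl2, a mannose-binding lectin gene, lay at 121 and 142 CPM at GV and 2.14 and 1.66 CPM at MII in the knockout and at 375 and 315 CPM at GV and 40.5 and 76.1 CPM at MII in the control (difference -3.54 ± 0.48). In Ptgr1 and Tep1 the knockout lay above the control at GV and below it at MII. The processed pseudogenes Gm12463 and Gm8730, outside the rule for named genes, also passed. Gm12463 lay at 95.2 and 81.9 CPM in knockout GV and 3.16 and 1.59 CPM in control GV. Gm8730 lay at 255 and 177 CPM in knockout GV and 5.76 and 6.37 CPM in control GV. Both pseudogenes thus lay far higher in the knockout already at GV, and both fell from GV to MII in the knockout (adjusted p = 3.3e-05 and 6.7e-06).

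The list of 13 depended on the libraries and on the method. Without control GV replicate 1, and likewise without control GV replicate 2, all 13 calls were lost (adjusted p up to 0.297), and leaving out other libraries gave up to 3 more positive and 21 more negative genes. Other libraries mattered too. The calls of Gm12463 and Gm8730 were lost when any of 8 libraries was left out. Those of Vps39, Got1, Mbl2, Rps4x, Tep1 and Rbm28 were lost for any of 7, those of Mfap1b and Odr4 for any of 6, and that of Ptgr1 for any of 5. Rpl3 lost its call only without a control GV library. DESeq2 called 111 and 244, edgeR without a filter on low counts 125 and 373, and edgeR with RLE size factors 0 and 1. All 13 kept the sign of the difference in these settings.

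**Figure D5:**
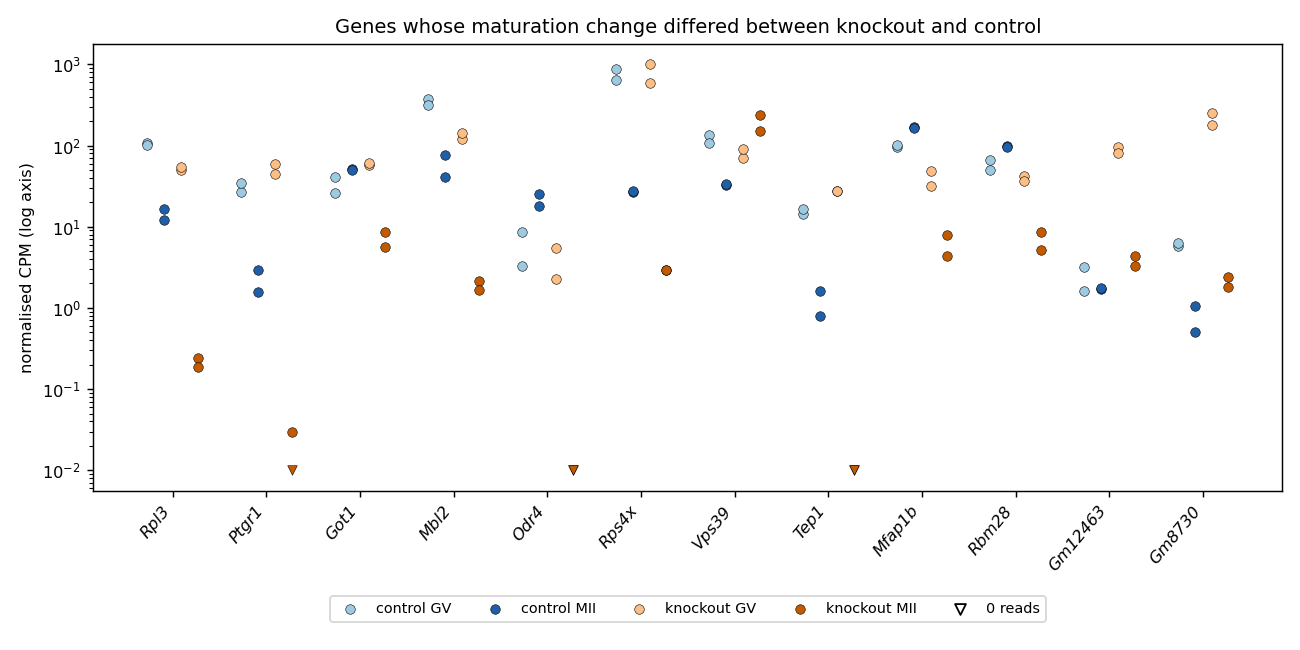
Normalised CPM (log axis) of 12 of the 13 genes whose maturation change differed between genotypes, in each of the 8 libraries; blue points are control (light GV, dark MII) and orange points knockout (light GV, dark MII), and triangles at the bottom mark 0 reads. Among these 12 genes Vps39 is the 1 with knockout MII above knockout GV, and both knockout MII points of Odr4 and Tep1, and 1 of Ptgr1, are at 0 reads.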

How the data were processed

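RNA sequencing reads of 8 mouse oocyte libraries, 2 for each genotype and stage, were used as a table of whole-number counts per gene that the authors deposited. The submitters' processing notes name Bowtie2, HTSeq, edgeR and the mm10 build, with no versions. Strand setting and annotation release are unstated. The 5 rows that name no gene held 22% to 35.1% of reads and were left out. A pair of columns carry the same name and are both control MII, so they served as libraries a and b of that group. Replicates differed beyond sampling noise (chi-square per degree of freedom 48.5 to 106).

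Gene rows were matched to GENCODE M21 symbols (54809 of 54838). Counts were filtered with filterByExpr, scaled by TMM and fitted with edgeR 4.0.16 in R 4.3.3 as 4 groups over 8 libraries, with the quasi-likelihood test and Benjamini-Hochberg adjustment over 15572 genes. The fit had 4 residual degrees of freedom. The scripts were tested on simulated counts. Intervals and floors (3 counts per library) cover counting error only. Sums over lists are shares of all reads in genes without TMM. The motif search used 1 coding transcript per gene.

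Some named genes were protein-coding genes called in the knockout with no overlap between stages. These were the 8 largest rises and falls of at least 20 CPM with reads in all 4 knockout libraries, and the 5 most abundant in each direction. Each list gave up to 3 called members per direction, and the members it is known by, called or not. The difference from control gave up to 10 called protein-coding genes per direction at 5 CPM or more. Values of some genes that the rule names are not reported here. Dazl, Orc6 and Tle6 were added after their values were seen. Members and lists were chosen with earlier results of these data known. Alternatives were DESeq2 1.42.0, other size factors, other filters, glmTreat, the knockout libraries alone, a replicate block and leaving out each library. Leaving out a library also reran the filter, with 1 library in its group. Between 17005 and 17477 genes were then tested in place of 15572, with fewer residual degrees of freedom. Calls lost in this way therefore do not show the influence of the library alone. The replicate numbers are not stated to pair the samples. Deviations of same-numbered knockout libraries correlated over genes at -0.02. A single correlation over genes cannot show whether these libraries shared mice or a collection.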

Additional observations from a re-analysis of the deposited data

Results flagged for a closer look

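The maturation change differed between knockout and control oocytes for 13 genes by edgeR's interaction test, and each difference is the knockout log2 fold change minus the control's. It was 3.13 for Vps39. It was -5.01 for Rpl3 and -3.30 for Rps4x, both ribosomal protein genes. It was -3.67 for Got1, -3.26 for Rbm28, -3.46 for Mfap1b and -3.54 for Mbl2. Fitted differences of -11.47 for Odr4, -8.77 for Tep1 and -7.46 for Ptgr1 rest on 0 or 1 read at knockout MII and are not sizes to rely on. The pseudogenes Gm12463 and Gm8730 had -4.07 and -3.73, and their GV levels were already far higher in the knockout than in the control. Adjusted p was 0.0142 for Rpl3 and between 0.0458 and 0.04996 for the others given, and all 13 calls were lost without either control GV library. The calls given, except that of Rpl3, were also lost when some other libraries were left out.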

How the results depend on the processing

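The count of genes whose maturation differed between genotypes (1 more positive and 12 more negative in the knockout) was the least stable result. It was 111 and 244 with DESeq2, 125 and 373 with no filter, 5 and 36 among genes averaging 5 CPM or more, 0 and 1 with RLE size factors, 0 and 2 with library totals alone, and 0 and 1 with glmTreat against a log2 fold change of 1. With edgeR as reported, 1787 genes had an unadjusted p below 0.05. Leaving out each library gave 0 to 3 and 0 to 21. For knockout MII against GV, glmTreat gave 1758 higher genes in place of 3102, and 98 list members higher in place of 178. Leaving out each library gave 1955 to 3052 higher and 3285 to 4818 lower genes, and 123 to 167 list members higher and 300 to 350 lower. Among genes averaging 5 CPM or more, 46.9% of calls were higher, against 40.7%. The motif shares in the last 300 bases were 51.0% of higher and 19.95% of lower genes. The cause of these shifts was not tested. With a replicate block over the knockout libraries 2675 genes were higher and 3619 lower, against 3010 and 4239 in those libraries without it. Of 193 named genes 186 were called, 144 kept the call without each library in turn, and 142 kept it in every setting run. Groups of 2 libraries limit all p-values, and genes near 0 reads at MII have folds of uncertain size.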

Other observations

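Processed pseudogenes had the highest share of falls among 4 gene classes counted. Of 636 tested in knockout oocytes, 237 fell (37.3%) and 19 rose (2.99%). Their median was -2.58, or -1.91 with genes at 0 reads at their bound. Over all genes tested 29.1% fell and 19.9% rose. Reads of these copies may be shared with their parent genes, which was not tested. Protein-coding genes had 2858 rises and 3832 falls among 12981. Of 832 lincRNAs 99 rose (11.9%) and 202 fell (24.3%), with a median of -0.79, or -0.68 at the bound. Of 382 antisense genes 34 rose and 88 fell, but without a stated strand setting their reads cannot be told apart from those of the overlapping gene.

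Opposite calls between genotypes were made for 11 genes, named here after their values were seen. Vps39, Spc25, Mkks, Gm47283 and Gm31323 rose in knockout and fell in control oocytes. Spc25 encodes a subunit of the NDC80 kinetochore complex. Odr4, Gse1, Rbm7, Arhgef11, Serpinh1 and Hdc fell in knockout and rose in control oocytes. Of the 11, Vps39 and Odr4 passed the test of the difference.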
